A study of Mus musculus with 24 samples.

Results

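Lungs of female SP-C/c-raf mice (F c-Raf) were compared with lungs of female wild type mice (F WT) for their miRNA expression pattern. Of the 24 1-colour mouse miRNA arrays of the series, 12 belonged to this comparison by their titles, 6 labelled F c-Raf and 6 labelled F WT. Each array held 100 ng of total RNA from a different individual, aged 4 to 6 months. In F c-Raf mice the promoter of surfactant protein C (SP-C) directs an active, N-terminally deleted c-Raf-1 kinase to the lung epithelium. The F WT mice are wild type, and no further treatment is given for either group. Cells were microdissected from frozen lung sections, and the tissue label reads adenocarcinoma also for the wild type samples. The transgenic animals bear precursor lesions and adenocarcinomas, so a sample can hold normal and altered epithelium, and a larger share of a cell type cannot be told apart from more miRNA per cell.

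c-Raf is the kinase that links RAS to MEK and ERK, and a constitutively active form drives growth of the alveolar epithelium. miRNAs are short RNAs that pair with messenger RNAs through a seed, bases 2 to 8 from the 5′ end, and lower their stability or translation. In lung, miR-21 is best known as a growth-promoting miRNA that RAS and ERK signalling induces, the miR-200 family holds cells in the epithelial state by repressing Zeb1 and Zeb2, and the miR-146 pair dampens inflammatory signalling through Irak1 and Traf6. miR-214 is typical of fibroblasts and other mesenchymal cells, and miR-127 comes from an imprinted locus.

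The mature sequences of the miRNAs on which the comparison turned are shown with the seed in capitals, as RefSeq gives them on build GRCm38.p6. All 11 names looked up were found, by name only, since the array files hold no probe sequences. The first 5 were higher and the next 2 lower in F c-Raf, as described further on. The last 4 are a paralog of miR-146b and the remaining detected members of the miR-200 family.
miR-21: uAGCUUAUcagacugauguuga
miR-146b: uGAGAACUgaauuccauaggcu
miR-127: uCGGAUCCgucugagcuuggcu
miR-31: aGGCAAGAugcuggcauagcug
miR-200a: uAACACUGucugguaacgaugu
miR-193b: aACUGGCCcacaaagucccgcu
miR-214: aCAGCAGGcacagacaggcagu
miR-146a: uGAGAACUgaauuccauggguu
miR-200b: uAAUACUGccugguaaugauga
miR-200c: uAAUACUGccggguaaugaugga
miR-429: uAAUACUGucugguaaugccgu

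miR-146a and miR-146b share a seed and differ at 2 bases near the 3′ end, G18A and U21C, written with the base of miR-146a first and counted from the 5′ end. miR-200b, miR-200c and miR-429 share the seed AAUACUG, and miR-200a differs from miR-200b inside the seed by U4C. No other seed was shared. Mature miR-21 lies at chr11:86584120-86584141 on the minus strand, inside the span of the gene Vmp1. miR-127 lies at chr12:109592888-109592909 on the plus strand, within the span of the imprinted gene Rtl1. miR-146b (chr19:46342790-46342811, plus strand) and miR-193b (chr16:13449570-13449591, plus strand) are encoded on chromosomes of their own among the called miRNAs. miR-31 (chr4:88910614-88910635) and miR-200a (chr4:156054911-156054932) are both on the minus strand of chromosome 4, where miR-200b (chr4:156055685-156055706) and miR-429 (chr4:156053916-156053937) are neighbours of miR-200a. miR-214 is at chr1:162223438-162223459 on the plus strand, within the span of the non-coding gene Dnm3os.

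The unit of all values below is the log2 scaled intensity: a miRNA's median intensity over its 20 spots, divided by the brightness of its array, on a log2 scale. Brightness is the 75th percentile of spot intensity among 27 mouse miRNAs, those that every one of the 24 arrays detected. Values under 0.01 of the brightness were set to that floor, which is -6.64. Brightness ran from 86.9 to 358.9 intensity units in F c-Raf and from 57.2 to 550.3 in F WT, and its log2 value did not differ between the groups beyond their spread (difference -0.22, exact permutation p = 0.688). The arrays detected 54 to 139 of 611 mouse miRNAs in F c-Raf and 62 to 150 in F WT. Each slide held 1 array of every group, with the replicate number as slide number, and each group sat at the same position on every slide, so position and genotype cannot be told apart. The transgene is not measured by these arrays, so the genotype labels could not be checked.

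F WT replicate 5 stood apart from the other F WT arrays for several of the miRNAs described below. Its miR-127 was at -3.15 and its miR-146b at -5.12, while the other 5 F WT arrays were at the floor for both. Its miR-21 (-2.33), miR-31 (-4.51) and miR-200a (-5.01) were also the highest of the F WT arrays. The array was the lowest of its group for the muscle miRNA miR-133b, at -6.16 against -4.45 to -3.56. For 6 of the 7 miRNAs called with or without it, its value lay nearer to the F c-Raf mean than to the mean of the other F WT arrays, the exception being miR-193b. For miR-214 it lay close to the middle, at -2.97 against means of -3.30 in F c-Raf and -2.54 in the other F WT arrays. Of the 7, miR-200a was called only without this array, so the count is no independent evidence about it. The same count was not taken over all tested miRNAs. Over the 120 tested miRNAs F WT replicate 5 lay outside the range of the rest of its group for 45. That number was 47 for F WT replicate 6 and 51 for F c-Raf replicate 2, so on this measure the array was not the most outlying. Over the same 120 the mean Pearson r of F WT replicate 5 was 0.909 with the other F WT arrays and 0.930 with the F c-Raf arrays. F c-Raf replicate 1 was 1 further array that correlated less with its own group (0.921 and 0.928). These correlations are across miRNAs and carry no test. The source of this difference was not tested. The called miRNAs are given with all arrays and without F WT replicate 5, and other values are with all arrays unless the array is named.

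The question was which miRNAs the transgene regulates in F lungs, and 120 miRNAs that 6 or more of the 24 arrays detected entered the limma test. With all arrays 6 were called at a Benjamini-Hochberg adjusted p under 0.05, which is 5% of those tested. 4 were up-regulated in F c-Raf (miR-21, miR-146b, miR-127 and miR-31; 3.33%) and 2 were down-regulated (miR-193b and miR-214; 1.67%). When F WT replicate 5 was left out, the same 6 and miR-200a were called, 7 in all or 5.83%. Of the 120, 17 (14.2%) had an unadjusted p under 0.05 with all arrays. The median difference over the 120 was 0.03, with 63 higher and 56 lower in F c-Raf, and it was -0.01, with 57 higher and 62 lower, when that array was left out. miR-146b, miR-127, miR-31 and miR-200a passed the filter through c-Raf arrays, since they were detected on 1, 1, 2 and 2 F WT arrays and on no M WT array.

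**Figure D1:**
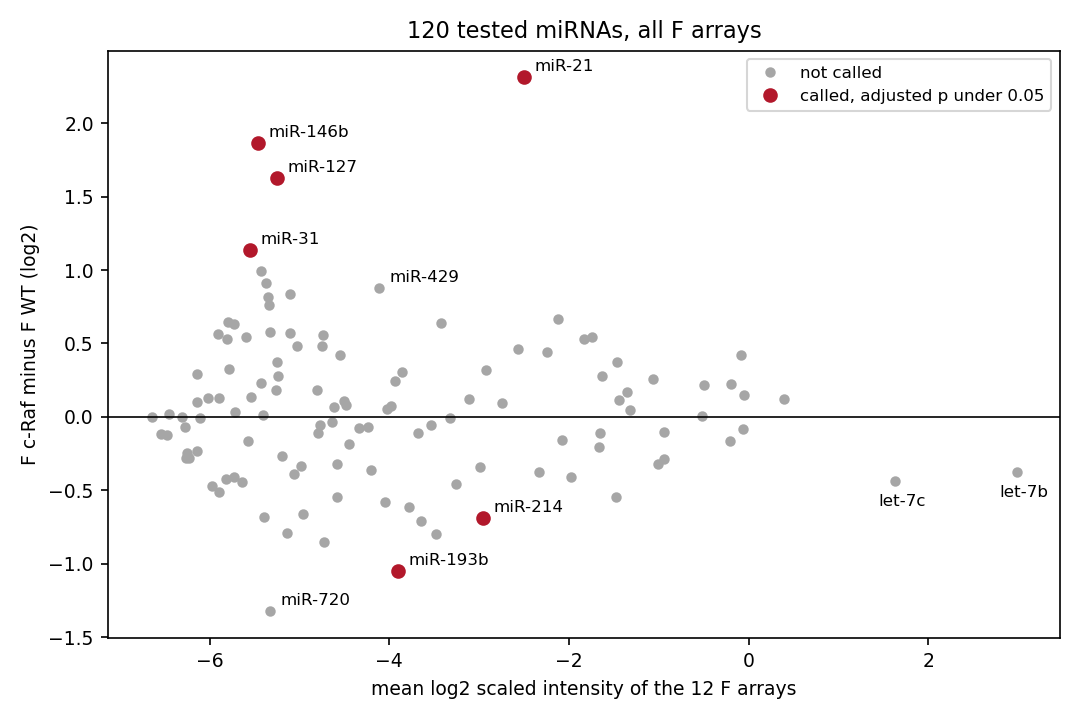
F c-Raf minus F WT (vertical axis, log2) against the mean log2 scaled intensity over the 12 F arrays (horizontal axis) for the 120 tested miRNAs, each point 1 miRNA and red points those called with all arrays. miR-21 has the largest difference at 2.31; miR-146b, miR-127 and miR-31 are dim, at mean levels of -5.46, -5.25 and -5.55, and let-7b and let-7c, the brightest, lie slightly below 0.

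miR-21, a growth-promoting miRNA, showed the largest difference. On the 6 F c-Raf arrays it was at -1.94, 0.01, -1.95, -1.58, -1.09 and -1.53 for replicates 1 to 6. On the F WT arrays it was at -4.23, -3.72, -4.23, -4.11, -2.33 and -3.35. The groups did not overlap, even with the high F WT replicate 5. Among the 120 miRNAs with all arrays, groups did not overlap for 2 that were higher in F c-Raf (1.67%) and for 1 that was lower (0.833%). miR-21 was up-regulated by 2.31 (SE 0.44, limma adjusted p = 0.00157), a 4.97-fold change with a confidence interval of 1.41 to 3.22 on the log2 scale. The difference was 2.58 (SE 0.43, adjusted p = 1.82e-04) without F WT replicate 5. It was detected on 6 of 6 arrays in both groups, and both of its probes showed the difference, at 2.49 and 2.35. Leaving out any 1 of the 12 F arrays kept the difference between 2.04 and 2.58, with adjusted p from 1.82e-04 to 0.00638.

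miR-146b, which targets adaptors of inflammatory signalling, had the smallest p with all arrays. Its F c-Raf values for replicates 1 to 6 were -5.33, -3.70, -4.61, -4.78, -4.16 and -4.55. In F WT it was detected only on replicate 5, at -5.12, and the other 5 arrays were at the floor. Every F c-Raf array was above those 5, and 1 of 6, replicate 1, was below F WT replicate 5. The difference was 1.87 (SE 0.26, limma adjusted p = 3.91e-05) with all arrays. Its size is set by the floor, and it was 3.85 if the floor was 0.001 and 0.01 if it was 0.1. With all arrays 5 of 6 F WT values were the floor, and the M WT mean in the same fit was -6.61, near it. Both the p and its rank therefore depend on the floor, and the call was lost with a floor of 0.1. Once F WT replicate 5 was left out, no F WT array detected miR-146b, and the measured mean was -6.64 against -4.52 in F c-Raf. All 5 F WT values were then the imposed floor, with no spread, so the p of that fit reflects the floor and is not given. The dimmest signal that those 5 F WT arrays flagged as well above background averaged -3.98, which is above the F c-Raf mean, so no fold is given. In intensity units its spots had medians of 4.36 to 15.3 in F c-Raf and of -1.39 to 1.95 on those 5 F WT arrays. On every F c-Raf array but replicate 4, that median too was below the dimmest signal flagged as well above background on the array. The same held for miR-31 and miR-200a, and for miR-127 on all F c-Raf arrays but replicates 4 and 6. F WT replicate 4 detected the most miRNAs of the 12 arrays (150), and miR-146b and miR-127 were at the floor on it.

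Its 2 probes of 10 spots each both showed a higher mean in F c-Raf, by 0.35 and by 2.25. miR-146a, which differs from miR-146b at 2 bases outside the seed, was not called. It ranged from -6.01 to -4.58 (median -5.58) in F c-Raf and from -6.59 to -4.41 (median -5.59) in F WT. The groups overlapped throughout, with a difference of 0.14 (SE 0.32, limma adjusted p = 0.905), whose sign turned under 4 of the other processing settings.

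miR-127, from the imprinted cluster of chromosome 12, was detected on all 6 F c-Raf arrays and on 1 F WT array. The F c-Raf values for replicates 1 to 6 were -4.82, -4.26, -4.41, -4.98, -4.21 and -3.93. F WT replicate 5, at -3.15, was above every F c-Raf array, and the other 5 F WT arrays were at the floor. With all arrays the difference was 1.63 (SE 0.44, limma adjusted p = 0.0338). With that array left out the measured F c-Raf mean was -4.44 and the F WT mean -6.64, where no array detected it, and neither a p nor a fold is given for the same reasons as for miR-146b. The call with all arrays was lost when any of 9 arrays was left out, which were F c-Raf replicates 2, 3, 5 and 6 and each F WT replicate other than 5, with adjusted p from 0.0615 to 0.0946. With a floor of 0.1 the difference with all arrays was -0.03, and it was -0.12 with a background floor, set on each array at the dimmest signal flagged as well above background. The 2 probes of miR-127 gave 0.27, near the floor in both groups, and 2.53. The 2 other members of the locus that the study tabulates, miR-433 and miR-337-5p, did not pass the filter on detection. miR-433 was detected on 0 F c-Raf arrays and 1 F WT array, and miR-337-5p on 3 and 1, the wild type array being replicate 5 for both.

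miR-31, which is known to rise with RAS and MAPK signalling in other epithelia, was at -5.17, -4.55, -4.54, -5.31, -5.43 and -4.89 on F c-Raf replicates 1 to 6. In F WT, replicates 1 and 6 were at the floor, replicates 2, 3 and 4 at -6.29, -6.22 and -6.40, and replicate 5 at -4.51. Without replicate 5 the groups did not overlap, and with it the highest value of all 12 arrays was a wild type one. Over the 120 miRNAs without that array, groups did not overlap for 6 that were higher in F c-Raf (5%) and for 2 that were lower (1.67%). miR-31 was up-regulated by 1.14 (SE 0.31, limma adjusted p = 0.0338) with all arrays and by 1.46 (SE 0.24, adjusted p = 1.82e-04) without F WT replicate 5. In the latter fit 2 of the 5 F WT values were the floor, which narrows their spread (SD 0.20) and bears on that p. miR-31 was detected on 5 F c-Raf arrays and on 2 F WT arrays. Its probes gave 1.70 and 0.27, the latter near the floor in both groups. The call with all arrays was lost if F c-Raf replicate 1, 2, 3 or 6, or an F WT replicate other than 5, was left out (adjusted p from 0.0510 to 0.113). With the background floor its difference was -0.03 with all arrays and -0.13 without F WT replicate 5.

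**Figure D2:**
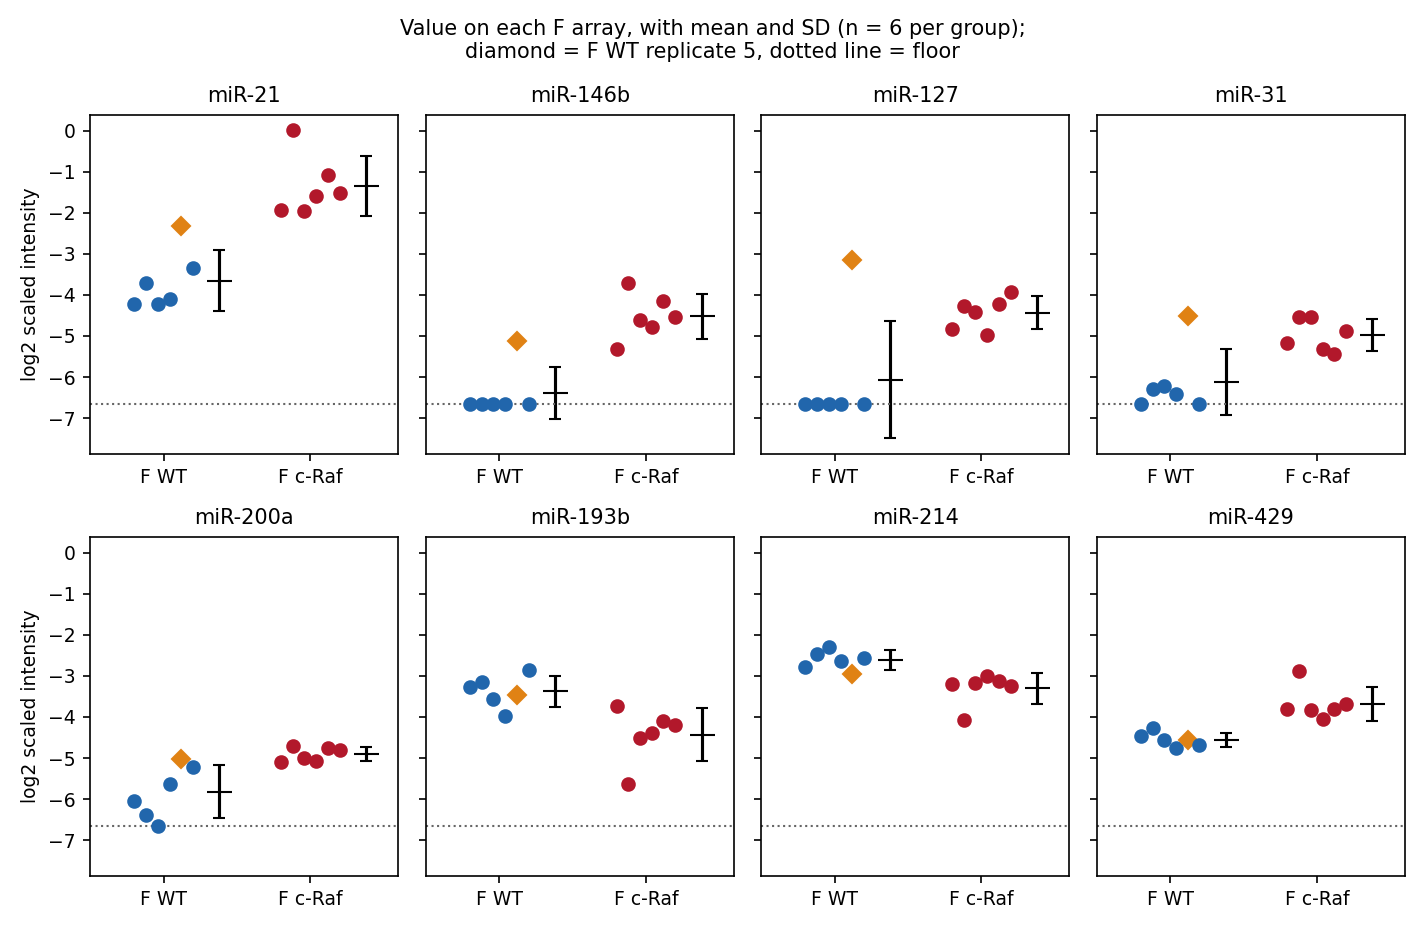
Log2 scaled intensity (vertical axis) of 8 miRNAs on each F WT and F c-Raf array, with points ordered by replicate, the mean and SD of the 6 arrays beside them, and the floor of -6.64 as a dotted line. F WT replicate 5 (diamond) is apart from the other 5 wild type arrays for miR-127, miR-146b and miR-31; miR-21, miR-214 and miR-429 do not overlap between the groups.

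The miR-200 family marks epithelial cells. All 4 of its 5 members that could be tested were higher in F c-Raf, against 63 of the 120. Their median difference was 0.77, against 0.03 over all 120, and miR-200a among them passed the filter through c-Raf arrays. The family was listed with earlier results of these data known, so its counts are no independent evidence of direction. The fifth member, miR-141, was detected on no F array. None of the 4 was called with all arrays, and 1, miR-200a, was called without F WT replicate 5. miR-200a was between -5.09 and -4.72 (median -4.91) in F c-Raf and between -6.64 and -5.01 (median -5.85) in F WT, where replicate 5 was the highest. Without F WT replicate 5 the groups did not overlap, which held for 6 of the 120 miRNAs in that direction (5%). The difference of miR-200a was 0.91 (SE 0.29, limma adjusted p = 0.0766) with all arrays and 1.08 (SE 0.29, adjusted p = 0.0246) without that array. That call was lost when F c-Raf replicate 2, 5 or 6 or F WT replicate 1, 2 or 3 was left out too (adjusted p from 0.0531 to 0.103) and without the detection filter (0.122). The difference of miR-200a under the background floor was -0.0038 with all arrays and -0.20 without F WT replicate 5. Its 2 probes gave 0.73 and 0.34, both smaller than the 0.91 over all spots.

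miR-429, transcribed with miR-200a and miR-200b, was between -4.06 and -2.87 (median -3.81) in F c-Raf and between -4.76 and -4.27 (median -4.57) in F WT. The groups did not overlap, and F WT replicate 5, at -4.57, lay within the others. The difference of miR-429 was 0.88 (SE 0.28, limma adjusted p = 0.0766) with all arrays and 0.87 (SE 0.30, adjusted p = 0.103) without F WT replicate 5. miR-200b was at -1.79 ± 0.37 (SD, n = 6) in F c-Raf against -2.45 ± 0.29 in F WT, a difference of 0.67 (SE 0.37, limma adjusted p = 0.414). miR-200c, encoded on another chromosome, differed by 0.42 (SE 0.27, adjusted p = 0.485).

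The largest decrease among the called miRNAs was that of miR-193b, a miRNA linked to restraint of cyclin D1. On F c-Raf replicates 1 to 6 it was at -3.73, -5.63, -4.51, -4.40, -4.10 and -4.19, and on F WT replicates 1 to 6 at -3.28, -3.14, -3.57, -3.96, -3.47 and -2.85. Only the highest F c-Raf value, that of replicate 1, overlapped with F WT, and F c-Raf replicate 2 was the lowest. miR-193b was down-regulated, with a difference of -1.05 (SE 0.25, limma adjusted p = 0.0179), 2.07-fold lower in F c-Raf. It was -1.07 (SE 0.27, adjusted p = 0.0193) without F WT replicate 5. Its size with all arrays fell to -0.70 with spot means, -0.46 with the background floor and -0.24 with a floor of 0.1, and its 2 probes gave -0.38 and -0.73. The call was lost without F WT replicate 2 (adjusted p = 0.0542) or replicate 6 (0.0678). miR-365, processed from a neighbouring hairpin, was not called, at a difference of 0.07 (SE 0.27, adjusted p = 0.945) with all arrays and -0.03 without F WT replicate 5.

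miR-214, which mesenchymal cells express, was between -4.07 and -3.01 (median -3.19) in F c-Raf and between -2.97 and -2.29 (median -2.60) in F WT. The groups did not overlap. miR-214 was down-regulated, with a difference of -0.69 (SE 0.19, limma adjusted p = 0.0338), 1.61-fold lower in F c-Raf, and -0.76 (SE 0.20, adjusted p = 0.0214) without F WT replicate 5. Its probes gave -0.56 and -0.55, both smaller in size than the -0.69 over all spots. The call was lost when any of 9 arrays was left out, the same 9 as for miR-31, with adjusted p from 0.0510 to 0.113. In the fit without F WT replicate 5 it was lost when F c-Raf replicate 2 (adjusted p = 0.0545), F WT replicate 2 (0.0520) or F WT replicate 3 (0.0844) was left out too. miR-199a-3p, made from the same host transcript as miR-214, differed by 0.12 (SE 0.18, adjusted p = 0.811), with ranges of -3.44 to -2.67 and -3.50 to -2.91.

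Of the miRNAs that were lower but not called, miR-720, since reclassified as a fragment of a transfer RNA, had the largest difference. It was between -6.64 and -4.98 (median -6.23) in F c-Raf and between -5.39 and -3.05 (median -4.96) in F WT, with a difference of -1.32 (SE 0.43, limma adjusted p = 0.0766). miR-181a, a miRNA of lymphocyte maturation, differed by -0.71 (SE 0.28, adjusted p = 0.223) and the erythroid miR-486 by -0.80 (SE 0.33, adjusted p = 0.223). miR-1895 differed by -0.79 (SE 0.34, adjusted p = 0.246). The muscle miRNA miR-133b differed by -0.85 (SE 0.52, adjusted p = 0.461) with all arrays and by -1.22 (SE 0.48, adjusted p = 0.198) without F WT replicate 5.

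Since each slide held both groups, the differences were also taken within slides. miR-21, miR-146b, miR-200a and miR-429 were higher in F c-Raf on 6 of 6 slides, and miR-193b and miR-214 were lower on 6 of 6. Over the 120 miRNAs, 10 (8.33%) were higher and 11 (9.17%) lower on every slide. The within-slide differences of miR-21 were 2.29, 3.72, 2.28, 2.53, 1.24 and 1.82 on slides 1 to 6. For miR-127 they were 1.82, 2.38, 2.23, 1.66, -1.06 and 2.71, and for miR-31 1.47, 1.74, 1.68, 1.09, -0.93 and 1.76. Slide 5, which holds F WT replicate 5, was the only slide with the opposite sign for both miRNAs. The 4 scan batches, of 1 or 2 slides each, gave one direction for each of the 7 miRNAs called with or without F WT replicate 5. For miR-21 the scan values ran from 1.53 to 3.00, for miR-127 from 0.83 to 2.31, for miR-31 from 0.41 to 1.71 and for miR-193b from -1.72 to -0.44.

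With the slide as a block in the model, 10 miRNAs were called with all arrays, the 6 above and miR-429 (limma adjusted p = 0.0431), miR-720 (0.0408), miR-181a (0.0280) and miR-106b (0.0278). The same block without F WT replicate 5 gave 11 calls, among them miR-200a, at an adjusted p of 0.0499, while miR-429 was not called (0.0606). miR-106b, of a cluster linked to proliferation, differed by 0.65 (SE 0.27, adjusted p = 0.223 without the block) and was detected on 3 F c-Raf and 2 F WT arrays.

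**Figure D3:**
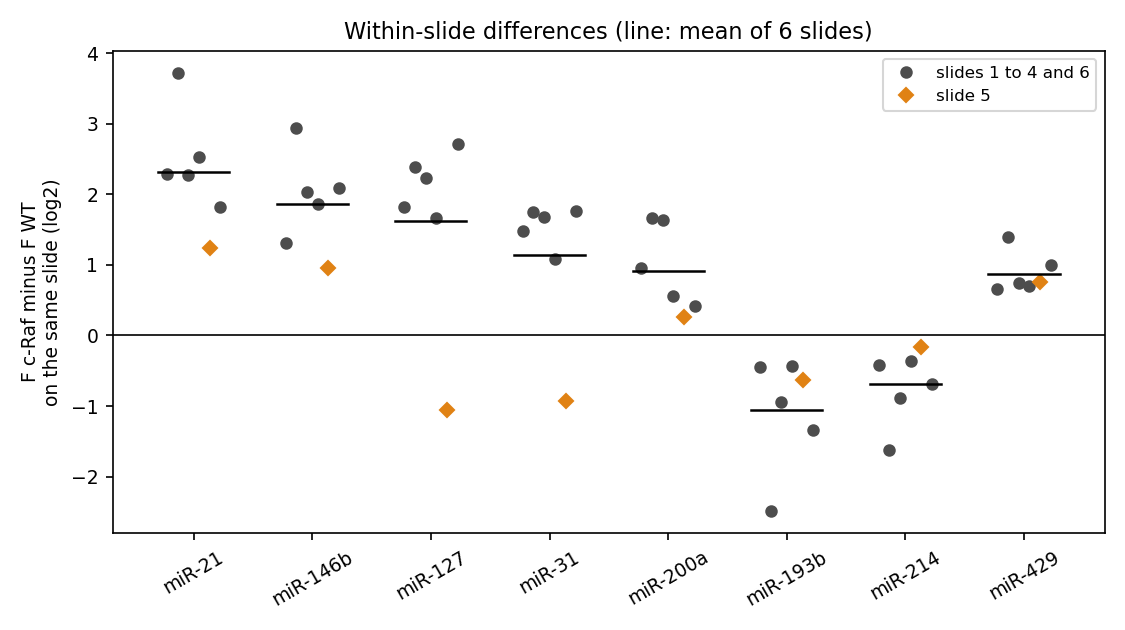
F c-Raf minus F WT on the same slide (vertical axis, log2) for 8 miRNAs, 1 point per slide, with the mean of the 6 slides as a line and slide 5 as a diamond. Slide 5 is negative for miR-127 (-1.06) and miR-31 (-0.93) while the other 5 slides are positive, and the slides agree in sign for the other 6 miRNAs.

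miRNA families and markers of cell types were then described by their counts. Of 13 miRNAs tabulated by the study, most of them chosen on these samples and so no independent evidence of direction, 8 were tested. All 8 were higher in F c-Raf, against 63 of the 120, and 3 were called (miR-21, miR-146b and miR-127), against 6 of the 120 or 5%. Their median difference was 0.55, against 0.03 over the 120. Of the other 5 tested, miR-183 (0.53, SE 0.27, limma adjusted p = 0.406; 0.77, adjusted p = 0.0609, without F WT replicate 5) and miR-322 (0.57, SE 0.34, adjusted p = 0.461) were near the floor in both groups. miR-34a, a target of p53, was at -1.28 ± 0.30 (SD, n = 6) in F c-Raf against -1.65 ± 0.32 in F WT (0.37, SE 0.21, adjusted p = 0.421). miR-15a differed by 0.32 (SE 0.32, adjusted p = 0.713). miR-182 and miR-96, encoded beside miR-183, were detected on no F array, and miR-184 on 2 F c-Raf arrays and 1 F WT array. Of 5 miRNAs linked to RAS and MAPK signalling in other systems 3 were tested, and miR-21 and miR-31 were called, against 5% of all miRNAs tested. The call of miR-31 was lost in 9 of 12 fits with 1 array left out. This list too was chosen with earlier results of these data known, so its share of calls is no independent evidence. miR-221 was at 0.01 (SE 0.29), a value whose sign turned under 8 other settings. miR-222 was detected on 1 array of each F group and miR-132 on none.

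All 9 let-7 members, miR-98 included, which restrain growth and target Ras and Hmga2 messages, were tested and none was called. Their differences ran from -0.44 to 0.44 with a median of 0.12. let-7c was between 1.02 and 1.82 (median 1.40) in F c-Raf and between 1.62 and 1.98 (median 1.86) in F WT (difference -0.44, SE 0.20, limma adjusted p = 0.279). let-7b was at 2.79 ± 0.36 (SD, n = 6) and 3.17 ± 0.25 (difference -0.38, SE 0.20, adjusted p = 0.406). let-7b and let-7c were lower in F c-Raf on 6 of 6 slides, while 6 of the 9 members were higher in the mean.

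Of the 6 tested members of the miR-15/16 family, which act on the cell cycle, none was called, at a median of 0.28. miR-16 was detected on 5 F c-Raf and 2 F WT arrays and differed by 0.84 (SE 0.38, limma adjusted p = 0.279), while miR-497 was lower by -0.37 (SE 0.19, adjusted p = 0.391). The 5 tested miRNAs of the miR-17-92 cluster and its paralogs had a median of -0.29 with none called, and miR-93 differed by -0.51 (SE 0.32, adjusted p = 0.465). In the miR-30 family, common in lung epithelium, none of 4 was called (median 0.21). miR-30a was at -1.57 ± 0.33 (SD, n = 6) in F c-Raf against -2.10 ± 0.30 in F WT (difference 0.53, SE 0.22, adjusted p = 0.223), and miR-30c differed by 0.31 (SE 0.66, adjusted p = 0.902). Both tested members of the miR-181 family were lower, with a median of -0.69 and none called, and miR-181b was at -0.66 (SE 0.37, adjusted p = 0.414). No member was called of the miR-34 and miR-449 (4 tested), miR-23, miR-27 and miR-24 (5 tested), miR-99, miR-100 and miR-125 (5 tested), miR-26 (2 tested), miR-103 and miR-107 (2 tested) or miR-29 (1 tested) groups, whose medians lay between -0.11 and 0.20. The median of the miR-34 and miR-449 group was 0.05 with all arrays and -0.12 without F WT replicate 5.

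Markers of other cell types were followed in the same arrays. miR-126-3p, the marker of endothelial cells, differed by 0.54 (SE 0.30, limma adjusted p = 0.414). Of 7 leukocyte miRNAs 5 were tested, with a median of 0.14 and none called. miR-342-3p differed by 0.46 (SE 0.21, adjusted p = 0.288) and the myeloid miR-223 by 0.57 (SE 0.35, adjusted p = 0.461). miR-150 and miR-155 went the other way, at -0.47 (SE 0.47, adjusted p = 0.71) and -0.23 (SE 0.31, adjusted p = 0.799), and miR-150 was at 1.11 with spot means. miR-142-3p and miR-142-5p, the most defining leukocyte miRNAs, were detected on no F array. The erythroid miR-451 differed by 0.11 (SE 0.40, adjusted p = 0.939), and miR-144 was not detected on any F array. miR-375, found in neuroendocrine cells, differed by -0.03 (SE 0.39), a value whose sign turned under 6 other settings. Liver miR-122 and neural miR-124, miR-9 and miR-128 were detected on no F array. Smooth muscle miR-143 and miR-145 were each detected on 1 F WT array and no F c-Raf array. Of 7 miRNAs of heart and skeletal muscle 2, miR-133a and miR-133b, were tested, and the other 5 were detected on no F array. miR-133a was detected on 2 F c-Raf and 5 F WT arrays and differed by -0.68 (SE 0.53, adjusted p = 0.601). The sum of the scaled intensities of miR-133a and miR-133b ran from 0.02 to 0.0812 in F c-Raf and from 0.024 to 0.1525 in F WT. The parts of these cell types in the differences of the called miRNAs were not tested.

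**Figure D4:**
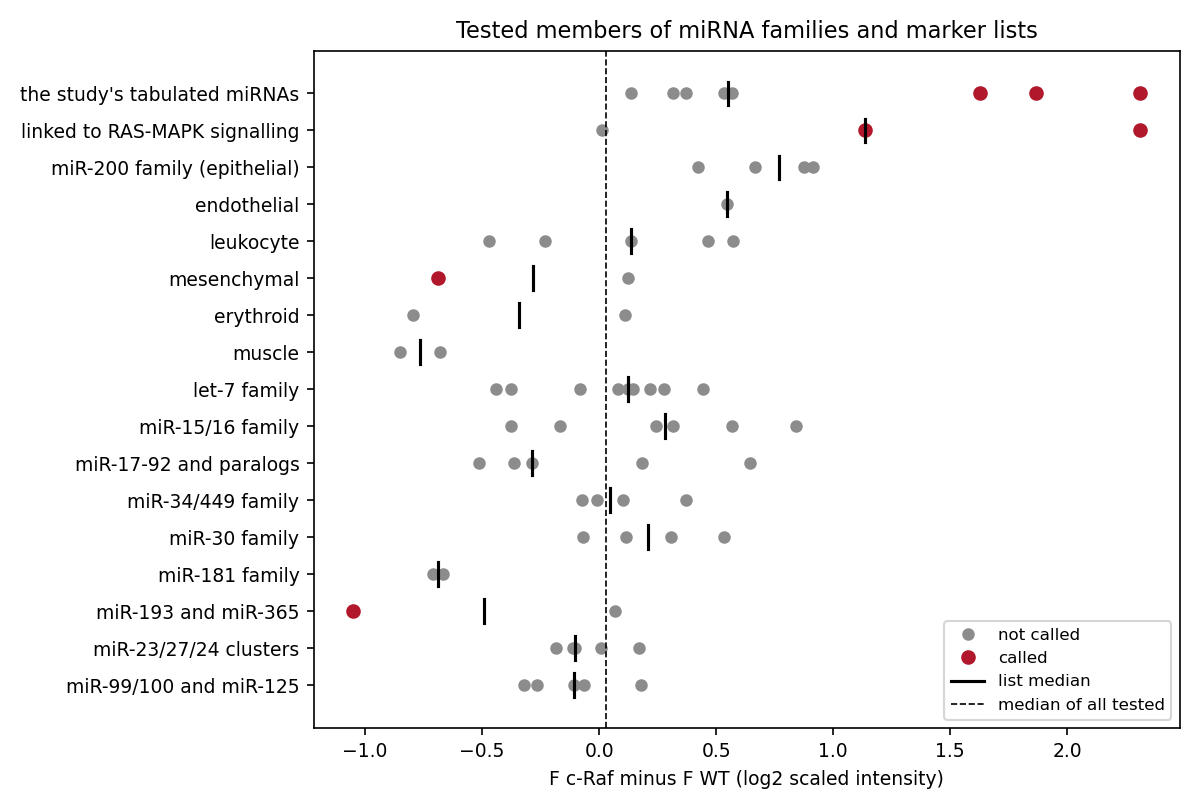
F c-Raf minus F WT (horizontal axis, log2) for the tested members of miRNA families and marker lists, each point 1 miRNA, red where called with all arrays, with list medians as bars and the median of all 120 (0.03) as a dashed line. The 4 miR-200 members lie between 0.42 and 0.91, and the let-7 members on both sides of 0.

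The detection flags of the files were compared as well. Of the 611 mouse miRNAs 141 were detected on at least 1 F c-Raf array and 171 on at least 1 F WT array. F c-Raf arrays detected 92.0 ± 31.3 miRNAs (SD, n = 6) and F WT arrays 92.2 ± 35.6, which did not differ beyond the spread (exact permutation p = 1). The difference was 4.8 miRNAs (exact permutation p = 0.816) without F WT replicate 5. There were 8 miRNAs detected on at least 3 more arrays in F c-Raf than in F WT, and 1, miR-133a, with the reverse. The 8 were miR-127 (6 against 1), miR-146b (5 against 1), miR-30a* (6 against 2), and miR-31, miR-200a, miR-16, miR-223 and miR-26b (5 against 2 each). miR-30a* and miR-26b were named here after their values were seen.

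The c-Raf difference of the F groups was set against that of the M groups, c-Raf minus WT in males of the same age on the same slides. Of the 120 miRNAs 3 (2.5%) were called in the M groups. With all arrays no miRNA was called in the limma test of the difference between both effects, and 5 (4.17%) had an unadjusted p under 0.05. For miR-146b the F difference of 1.87 stood beside 0.49 (SE 0.26, adjusted p = 0.244) in the M groups, and the effect was larger in F by 1.38 (SE 0.37, adjusted p = 0.126). For miR-127 it was 1.63 beside 0.49 (SE 0.44, adjusted p = 0.438), a difference of the effects of 1.13 (SE 0.62, adjusted p = 0.872). Without F WT replicate 5, 2 miRNAs (1.67%) were called, miR-127 with 1.71 and miR-146b with 1.63. All F WT values of both were then the imposed floor. The SE and p of that test reflect the floor and are not given. Both calls were lost, or the miRNAs not tested, with 9 other settings, among them total gene signal, spot means, a floor of 0.001 and the background floor. Neither miRNA was detected on any M WT array or, then, on any F WT array, so this compares c-Raf levels above a shared floor. With all arrays the sign of the miR-146b value depended on the scaling. With the 75th percentile over all non-control spots it was -0.97 as measured and -0.17 relative to the median shift of all tested miRNAs.

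miR-21 differed by 1.27 in the M groups (SE 0.44, limma adjusted p = 0.123), where it was higher on 6 of 6 slides, and the difference of the effects was 1.04 (SE 0.62, adjusted p = 0.872). miR-31 was at 0.82 (SE 0.31, adjusted p = 0.137) and miR-200a at 0.54 (SE 0.29, adjusted p = 0.250) in the M groups. miR-193b was at -0.85 (SE 0.25, adjusted p = 0.0906) and lower on 6 of 6 slides. miR-214 was called in the M groups too, at -1.03 (SE 0.19, adjusted p = 0.00297). None of these 5 differed between F and M past the threshold, with adjusted p of 0.872 for each, which does not show that the effects were alike. After miR-146b the smallest unadjusted p for the difference of the effects belonged to miR-497, at -0.65 (SE 0.27), and miR-27b, at -0.84 (SE 0.34), both with an adjusted p of 0.872. miR-497 was at -0.37 in the F groups and 0.28 in the M groups. miR-652 and miR-720 were the other 2 of the 5 with an unadjusted p under 0.05, and miR-652 was named after its values were seen.

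**Figure D5:**
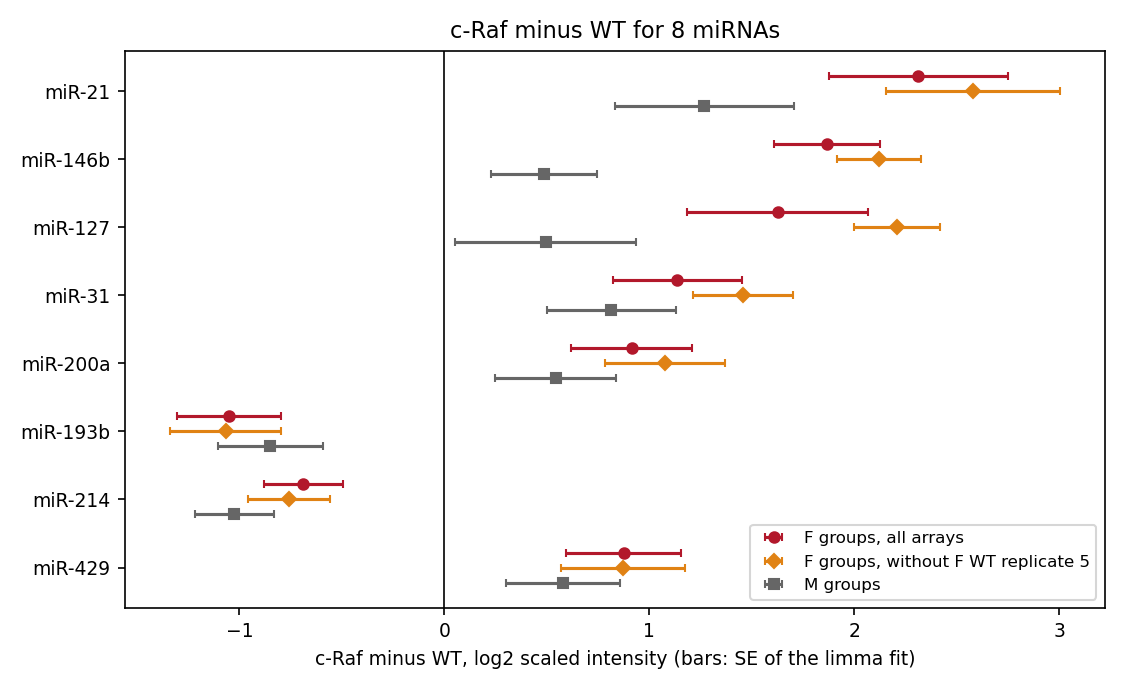
c-Raf minus WT (horizontal axis, log2 scaled intensity) of 8 miRNAs in the F groups with all arrays, in the F groups without F WT replicate 5 and in the M groups, with the SE of the limma fit as bars. All 8 have the same sign in the 3 series, and the gap between F and M is widest for miR-146b and miR-127.

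The calls depended on how the arrays were scaled and on how dim values were treated. With the 75th percentile over all non-control spots, without scaling or with normexp background correction no miRNA was called with all arrays. These scalings moved the median of all tested miRNAs to 0.19, -0.21 and 0.62. Taken relative to that shift, the differences of the 7 miRNAs called with or without F WT replicate 5 kept their sign under each. Before the shift was taken off, miR-193b was at 0.40 and miR-214 at 0.30 with normexp. miR-21 was still called under a floor of 0.1 and under the background floor (adjusted p = 7.9e-05 and 0.00542), where miR-146b, miR-127, miR-31, miR-193b and miR-214 were not. The main fit took its spread from all 24 arrays, M groups included. With only the 12 F arrays fitted, miR-21 and miR-146b were kept of the 6 calls, and miR-429 was called as well. When F WT replicate 5 was left out of that fit, 6 of the 7 calls were kept, all but miR-193b, and miR-429 was added.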

How the data were processed

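The 24 arrays were 1-colour Agilent mouse miRNA arrays (array design on build mm9), 1 animal each. The intensities deposited by the authors are linear, background-subtracted and spatially detrended spot values, made with Feature Extraction 10.7.3.1 per the file headers, while the submitters' processing notes list 8.1.3. The authors' value table holds, per miRNA, a fixed multiple of the spot median over the 75th percentile of all spots (100% of values within 1%). Its column medians ran from 299.1 to 2273, and it served as an alternative.

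Each spot intensity was divided by the 75th percentile of its array, taken among spots of 27 mouse miRNAs that all 24 arrays detected, floored at 0.01, summarised by the median over 20 spots and taken to log2. miRNAs detected on at least 6 of 24 arrays were tested (120 of 611), with limma 3.58.1 in R 4.3.3 on all 24 arrays, 1 mean per group, two-sided, and Benjamini-Hochberg adjustment over the 120 (prior degrees of freedom 1.80, residual 20). The same fit without F WT replicate 5 had 1.78 and 19. The scale of the normalized values is relative, and the number of arrays limits the precision. Numbers per array were compared with an exact permutation test, two-sided (924 ways).

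The replicate number is also the slide. Deviations of same-numbered F c-Raf and F WT arrays correlated at -0.122, 0.563, 0.702, 0.488, -0.0297 and 0.309 for slides 1 to 6. The pairing comes from the slide in the file headers.

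Named were the called miRNAs, the 13 that the study tabulates, list members of small p, the 10 brightest, the 5 largest differences of each sign that were not called, the 3 of smallest p between F and M, and those with an outlying array. The members and lists were chosen with earlier results of these data known. Alternatives changed the scaling, background, spot summary, floor, detection filter, arrays fitted, slide or scan as terms, array weights, the methods' t-test and, in turn, each F array. The files used hold no mean spot signal, so normexp (offset 50) was run on the median signal. Data for the F comparison were simulated in 20 runs, with 24 of 120 miRNAs changed in each. Changes of 1 on the log2 scale were recovered in 57.5% and of 2 in 90%, with 0.85 false calls a run on average. Here 6 of 120 were called, and a smaller changed share was not simulated. The rates therefore need not hold for this comparison. Mature sequences are RefSeq's on GRCm38.p6.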

Additional observations from a re-analysis of the deposited data

Results flagged for a closer look

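In 92 groups of 6 arrays, 8 held an array whose gap to its nearest neighbour relative to the group's range exceeded Dixon's critical value, where chance gives about 1 in 20 groups, or 4.6. F WT replicate 5 was that array for miR-146b and miR-127, where the gap was the whole range (1.0 for both). With the other 5 F WT arrays at the floor, this ratio is 1.0 for any value above the floor. The same array stood out for miR-31 (0.803) and, on the low side, for miR-133b (0.658). The groups share arrays and some hold floored values, so the 4.6 is only a guide. F c-Raf replicate 2 was low for miR-214 (0.784), at -4.07 against -3.24 to -3.01, and for miR-133b (0.627), and high for miR-429 (0.685), at -2.87 against -4.06 to -3.69. F c-Raf replicate 4 was low for miR-34a (0.626), at -1.85 against -1.31 to -0.99. Without F WT replicate 5, limma's test of the difference itself called the c-Raf effect of miR-146b (1.63) and miR-127 (1.71) as larger in F than in M. The p of that test reflects the floor and is not given. No F WT or M WT array then detected either miRNA, and both calls were lost, or the miRNAs not tested, with 9 other settings.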

How the results depend on the processing

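Calls with all arrays (6) fell to 0 with the 75th percentile over all spots, without scaling, with normexp, in the deposited table (where 9 miRNAs could be tested) and with the methods' t-test on linear values after Benjamini-Hochberg. They were 1 with a floor of 0.1 or the background floor (the dimmest signal flagged as well above background), 2 with the total gene signal, no filter, detection on at least 12 arrays or the methods' t-test on log2 values after adjustment, and 3 without outlier spots, with the 12 F arrays alone or by the methods' t-test at their thresholds. With the 12 F arrays alone the 3 were miR-146b, miR-21 and miR-429, so 2 of the 6 were kept. By the methods' t-test at their thresholds they were miR-146b, miR-184 and miR-21. Calls were 10 with the slide as replicate block and 11 with array weights, and 2 to 7 with 1 array left out. Without F WT replicate 5 (7 calls) the same settings gave 2 with the 75th percentile over all spots, 3 without scaling, 0 with normexp, the deposited table or the linear t-test, 2 and 1 with both floors, 4 without a filter, 3 with at least 12 arrays, 11 with the replicate block, 13 with the scan as a term, 14 with array weights and 4 with the log2 t-test. The F minus M calls were 0 to 2 with 1 array left out and 3 with array weights. Without F WT replicate 5 (2 calls) they were 4 with array weights, 1 with the floor of 0.1, and 0 with the 75th percentile over all spots, no scaling, normexp, total gene signal, spot means, deposited table, floor of 0.001, background floor or at least 12 arrays.

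The replicate block rests on the slide in the file headers, since the correlations of same-numbered arrays were above 0.1 for 4 of 6 slides, and it kept all 6 calls. With 1 array left out the difference in detected miRNAs ran from -9.57 to 11.4 and that in log2 brightness from -0.6323 to 0.02089.

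Of single differences, with the background floor the sign turned for miR-127 (-0.115), miR-31 (-0.03469; -0.1256 without F WT replicate 5), miR-200a (-0.003843; -0.1998), miR-146a (-0.02759), miR-16 (-0.08535), miR-106b (-0.03699), miR-365 (-0.09288), miR-223 (-0.04716) miR-451 (-0.1035) and miR-221 (-0.1064), and, for F minus M, miR-27b (0.06821) and miR-193b (0.09058). With the floor of 0.1 it turned for miR-127 (-0.02837 in F and F minus M) and F minus M miR-193b (0.03911), and for miR-375 (0.001632), and 24 differences had no value, all arrays being at the floor. With normexp, relative to the shift of all miRNAs, it turned for miR-34a (-0.1247), miR-200c (-0.2932), miR-93 (0.04049), miR-30a (-0.04469), miR-199a-3p (-0.0374), miR-342-3p (-0.03729), miR-133a (0.01278), miR-375 (0.02644), miR-150 (0.03113), miR-155 (0.1081) and F minus M miR-214 (-0.343). Values for the 75th percentile over all spots and for no scaling are also relative to their shift. With the 75th percentile over all spots it turned for miR-466i (-0.2925), miR-221 (-0.03019) and, for F minus M, miR-146b (-0.1741), miR-31 (-0.1997) and miR-200a (-0.2466). Spot means turned miR-365 (-0.003347), miR-375 (0.03601), miR-150 (1.109), miR-221 (-0.04883) and F minus M miR-31 (-0.02679) and miR-200a (-0.1069), and the floor of 0.001 turned the latter 2 (-0.05105 and -0.1542). miR-146a also turned without scaling (-0.124), without outlier spots (-0.02636) and with array weights (-0.05269), miR-199a-3p without outlier spots (-0.002385) and miR-451 with array weights (-0.06873). miR-375 turned with total gene signal (0.2563), without outlier spots (0.1942) and with array weights (0.1319), miR-155 with total gene signal (0.0571), and miR-221 with quantile normalization (-0.01208), no scaling (-0.08496), centring on the median (-0.00871), total gene signal (-0.2127) and array weights (-0.09615). With 1 array left out the ranges that crossed 0 were those of miR-146a (-0.06151 to 0.3755), miR-30c (-0.01287 to 0.5705), miR-365 (-0.1019 to 0.1551), miR-451 (-0.03599 to 0.267), miR-375 (-0.2128 to 0.2762), miR-221 (-0.06576 to 0.1092) and F minus M miR-193b (-0.3415 to 0.03877). The causes were not tested. Apart from these, 878 single differences under other settings kept direction and stayed called or uncalled, 87 lost the call and 19 gained it. The 878 include miRNAs not called in the main fit. Over 32 alternatives with all miRNA calls counted, 12 of them with 1 F array left out, miR-21 was called in 28. miR-146b was called in 24, miR-193b in 19, miR-127 in 11, miR-214 in 9, miR-31 in 7 and miR-200a in 3. Signal over background limits the sizes for miR-146b, miR-127, miR-31, miR-200a and miR-193b.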

Other observations

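The 10 brightest miRNAs of the F arrays, 6 of them let-7 members, differed by -0.44 to 0.42 between F c-Raf and F WT, with none called. miR-466g, miR-466f-3p and miR-466i, from a large rodent cluster within Sfmbt2, had the largest standard errors of the fit among the named miRNAs. miR-466g was at the floor on 2 of 6 F c-Raf arrays, replicates 1 and 3, and reached -3.38 on replicate 6. In F WT it was at the floor on replicates 2, 3 and 5 and reached -4.58 on replicate 1. Its difference was 0.99 (SE 0.88, limma adjusted p = 0.664), that of miR-466f-3p 0.82 (SE 0.88, adjusted p = 0.736) and that of miR-466i 0.76 (SE 0.84, adjusted p = 0.738), none beyond the spread between arrays. Detected on F WT arrays and on no F c-Raf array were 35 miRNAs, each on 1 or 2 arrays, and 5 were detected on F c-Raf arrays alone, each on 1 or 2 arrays.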
